A study of Mus musculus with 4 samples.

Results

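The 10 listed enzymes of eicosanoid synthesis and breakdown were followed across cells sorted from mouse melanomas as CD45+, out of 32285 genes counted. They were listed by name for their step in the pathway, with earlier results of these data known, and all 10 were in the count table. The cyclooxygenases are Ptgs1 and Ptgs2. The terminal prostanoid synthases are Ptges, Ptges3, Hpgds and Tbxas1, and Hpgd starts the breakdown of prostaglandins. Alox5, Alox5ap and Ltc4s belong to the leukotriene branch.

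Eicosanoids are short-range lipid messengers made from arachidonic acid, which phospholipases release from membranes. Cyclooxygenases turn it into prostaglandin H2, and the terminal synthase a cell holds then sets whether prostaglandin E2, prostaglandin D2 or thromboxane is made. 5-lipoxygenase, helped by its activating protein in the membrane, opens the other branch, from which leukotriene C4 synthase makes the cysteinyl leukotrienes. In tumours the route is best known for prostaglandin E2, which dampens the function of myeloid cells and T cells.

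Single-cell RNA sequencing was carried out on CD45+ cells of tumours grown from YUMM1.7 mouse melanoma cells that express ovalbumin, implanted in Rag2-/- mice, which have no T or B cells of their own. OT-1 T cells, specific for a peptide of ovalbumin, were transferred on day 7 and tumours were taken on day 10, that is after 72 h, in all 4 groups. NTT is a line naive to targeted therapy (the clone 3A6) and RTT a line resistant to it (the clone 2B12), which was kept in culture with the BRAF inhibitor dabrafenib. RTT_ROSA26 and RTT_PTGS12KO are resistant lines edited with inducible Cas9, with a control guide at the Rosa26 locus or with guides against both cyclooxygenases. Per the study's methods, edited derivatives of resistant lines were kept in dabrafenib as well. Each group held 1 sample. The labels give 1 tumour per condition, while the study's legends describe pooled tumours, and this was not settled. The edits were made in the cancer cells, whereas CD45+ cells were sorted and counted, and 3' tags can outlast an edit, so no value here checks an edit. A replicate test was therefore not possible for any difference, and the cells of a sample are not replicates.

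The samples held 8266 (NTT), 7970 (RTT), 6836 (RTT_ROSA26) and 10296 (RTT_PTGS12KO) cells, with median UMI counts per cell of 7293, 12627, 13280 and 12219. The 4 samples were multiplexed with CellPlex tags. Each was present under each of 3 barcode suffixes, which are read here as 3 loads. No barcode of a load was given to more than 1 sample. The authors' 17 cell type names were kept after a check against markers. Of these, 15 had at least 1 marker of the fixed lists among their 10 leading genes and 2 (TAM_H2Ab1 and Myofibrobl) had none. Infl_Mono was led by interferon-stimulated genes with 1 monocyte marker. The cells named Myofibrobl stood apart in a CD45+ sort, since Ptprc, which encodes CD45, was at 15.9 to 31.0 CPM in the resistant samples and was seen in 20.3% to 29.7% of their cells, against 93.2% to 93.8% of TAM_C1q cells in the same samples. All 5 genes of a myofibroblast list were present there, at 1465 to 1898 CPM in sum, and 5 or 6 of 6 melanoma genes were at 0. The level of those melanoma genes in the cancer lines themselves was not analysed here, so the name is used below only as the authors' label.

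The guides are shown because they define RTT_PTGS12KO. The 20 letters of each guide are in lower case and the capitals mark the adjacent PAM read from the transcript. Both lie on the antisense strand within coding exons in the GENCODE annotation of GRCm38, the Ptgs1 guide in exon 11 of 11 of its main transcript at chr2:36251276-36251295 and the Ptgs2 guide in exon 7 of 10 at chr1:150104014-150104033.
Ptgs1 guide: gcacacggaaggaaacatagGGG
Ptgs2 guide: gttgtgctcccgaagccagaTGG

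The promoters of 4 enzymes are shown because Ptgs1, Hpgds and Ltc4s, but not Ptgs2, were lower in the macrophages of RTT_PTGS12KO than of RTT_ROSA26. Each runs from 250 bases before to 50 bases after the RefSeq gene start in GRCm38.p6, and 9 of the 10 enzymes had an entry. Capitals mark matches, on either strand, to 8 motifs that were searched. Ptgs1 lies at chr2:36230176-36230475 (plus strand), Hpgds at chr6:65144681-65144980 (minus), Ltc4s at chr11:50238483-50238782 (minus) and Ptgs2 at chr1:150099781-150100080 (plus).
Ptgs1 promoter: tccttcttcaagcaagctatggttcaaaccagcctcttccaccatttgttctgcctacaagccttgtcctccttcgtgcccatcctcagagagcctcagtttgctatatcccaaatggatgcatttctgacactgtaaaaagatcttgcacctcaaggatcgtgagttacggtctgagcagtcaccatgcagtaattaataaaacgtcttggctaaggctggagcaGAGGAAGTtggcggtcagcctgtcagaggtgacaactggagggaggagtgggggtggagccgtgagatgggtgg
Hpgds promoter: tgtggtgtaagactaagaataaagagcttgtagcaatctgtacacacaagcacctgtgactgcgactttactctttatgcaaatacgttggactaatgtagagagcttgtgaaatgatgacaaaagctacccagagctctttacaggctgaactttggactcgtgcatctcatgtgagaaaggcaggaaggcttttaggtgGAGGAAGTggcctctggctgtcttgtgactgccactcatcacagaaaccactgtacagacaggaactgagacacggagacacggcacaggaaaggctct
Ltc4s promoter: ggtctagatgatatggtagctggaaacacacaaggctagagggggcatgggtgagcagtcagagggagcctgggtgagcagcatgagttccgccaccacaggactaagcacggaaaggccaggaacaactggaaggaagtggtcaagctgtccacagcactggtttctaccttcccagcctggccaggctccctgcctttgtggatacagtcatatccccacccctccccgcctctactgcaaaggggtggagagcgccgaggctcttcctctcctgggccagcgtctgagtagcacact
Ptgs2 promoter: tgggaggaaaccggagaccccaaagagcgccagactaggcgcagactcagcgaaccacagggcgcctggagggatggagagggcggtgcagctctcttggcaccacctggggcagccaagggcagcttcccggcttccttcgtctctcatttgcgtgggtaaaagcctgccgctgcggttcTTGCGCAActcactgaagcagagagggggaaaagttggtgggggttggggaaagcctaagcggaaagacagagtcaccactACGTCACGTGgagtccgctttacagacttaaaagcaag

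The capitals in the Ptgs1 and Hpgds promoters are a PU.1 core, GAGGAAGT, which 3.20% of 32851 mouse promoters of this length hold. PU.1 is the master transcription factor of myeloid cells. The capitals in the Ptgs2 promoter are a C/EBP palindrome, TTGCGCAA (held by 0.183% of promoters), and a cAMP response element, ACGTCA (7.51%), which overlaps an E-box, CACGTG (7.15%). The Ltc4s promoter held none of the 8. The other 4 motifs were an NF-kB site (1.63%), an AP-1 site, TGANTCA (7.81%), an interferon response element (3.44%), and a TATA box, TATAAA (13.6%). These are matches of letters only and say nothing of binding.

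Levels are CPM, the UMIs of a gene per 1e6 UMIs summed over a cell type of a sample, with 95% exact Poisson intervals that cover counting error only. In such sums, fewer cells of a type and less RNA per cell cannot be told apart for a gene's total. A cell type and sample was ranked when it held at least 50 cells, which gave 12 ranked types in RTT_PTGS12KO, 11 in RTT, 10 in RTT_ROSA26 and 9 in NTT. Cell types were named from clusters of the same cells, so differences between them are given as description. Levels of different genes are not set against each other, since 3' tags capture genes unequally.

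**Figure D1:**
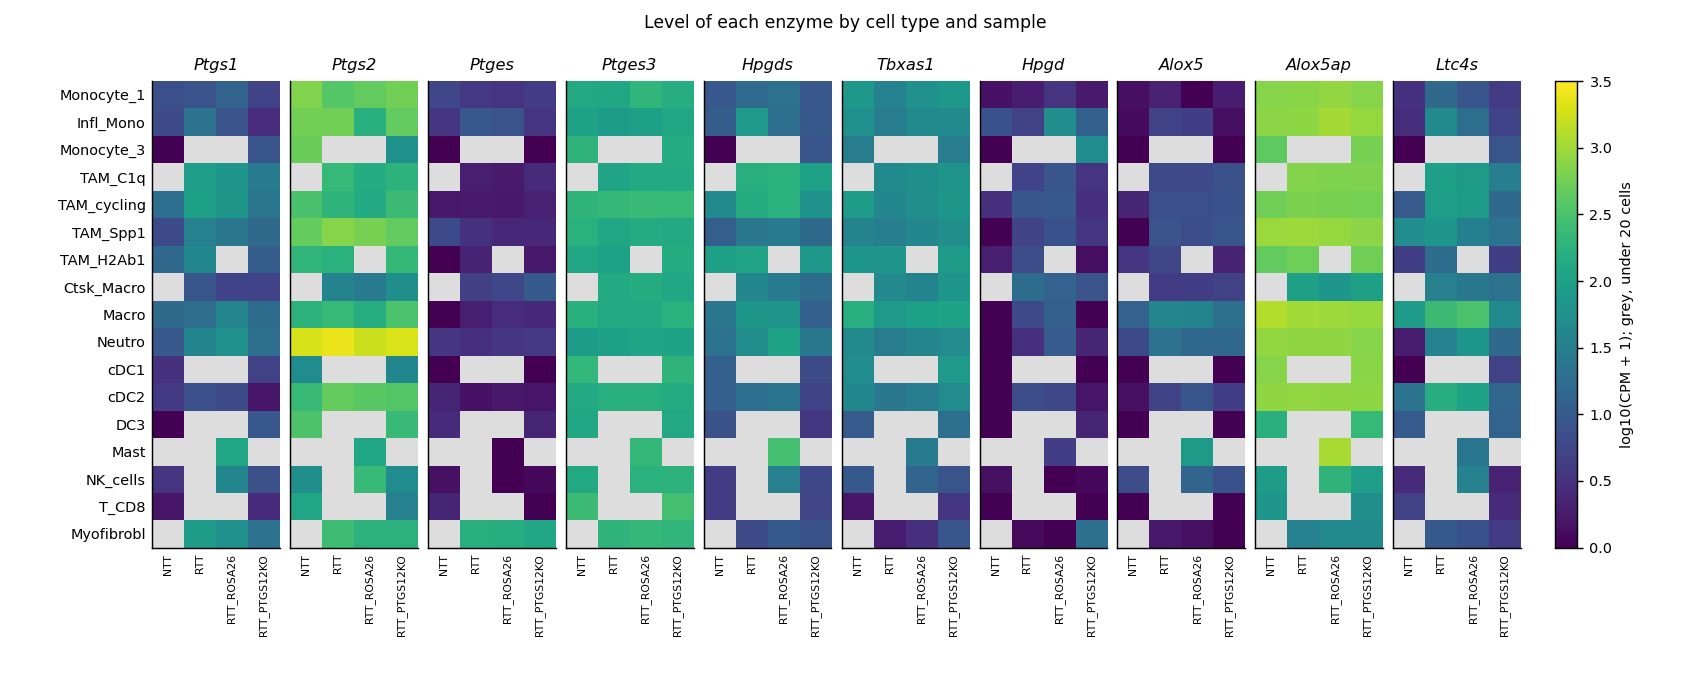
Colour gives log10(CPM + 1) of each of the 10 enzymes (columns of panels) in each authors' cell type (rows) and sample (columns within a panel), with types under 20 cells in grey. Ptges stood out in Myofibrobl, Ptgs2 in Neutro, Hpgds in TAM_C1q and TAM_cycling, and Alox5ap was high in nearly all myeloid types.

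Ptgs1, the constitutively expressed cyclooxygenase, was highest, among ranked types of RTT and RTT_ROSA26, in C1q and cycling macrophages, with Myofibrobl next. In TAM_C1q it stood at 91.4 CPM (88.7 to 94.1) in RTT, at 68.8 (66.1 to 71.6) in RTT_ROSA26 and at 27.8 (25.7 to 30.0) in RTT_PTGS12KO. In TAM_cycling it stood at 92.2 CPM in RTT, 70.1 in RTT_ROSA26, 22.6 in RTT_PTGS12KO and 18.2 in NTT. TAM_cycling and TAM_C1q were the first and second of the ranked types in RTT and in RTT_ROSA26, with overlapping intervals, followed by Myofibrobl (85.9 and 58.5 CPM). The intervals of Myofibrobl overlapped those of TAM_C1q in both samples. In RTT_PTGS12KO, TAM_C1q led TAM_cycling without overlap. TAM_Spp1 was lower in each of the resistant samples (32.1, 23.5 and 15.2 CPM in RTT, RTT_ROSA26 and RTT_PTGS12KO) and Ctsk_Macro lower still (7.67, 4.08 and 4.13 CPM). Monocyte_1 stood between 4.25 and 12.1 CPM in the 4 samples, and Infl_Mono between 1.80 CPM in RTT_PTGS12KO and 20.4 in RTT. The 43 mast cells of all samples, too few to rank, pooled to 107 CPM (78.5 to 141).

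Ptgs2, the inducible cyclooxygenase, was highest in Neutro, Monocyte_1, TAM_Spp1 and Infl_Mono when the samples were pooled. It was not confined to them, with cDC2 at 365 CPM, TAM_cycling at 192 and TAM_C1q at 189 in the same pool. Neutro ranked first in all 4 samples, at 2474 CPM (2396 to 2555) in RTT, 2018 (1945 to 2093) in RTT_PTGS12KO, 1947 (1867 to 2028) in NTT and 1676 (1623 to 1730) in RTT_ROSA26, and its interval overlapped that of no other type. After thinning every cell to 4000 UMIs, 87.7% to 96.7% of neutrophils carried a Ptgs2 UMI. The same share was 8.63% of NK cells in NTT and 11.7% in RTT_PTGS12KO, which are used as a background whose source was not tested. TAM_Spp1 ranked second in RTT (719 CPM) and RTT_ROSA26 (607), while Monocyte_1 ranked second in NTT (692 CPM) and RTT_PTGS12KO (563). Macrophage types thus spanned a wide range within 1 tumour, from 35.8 CPM in Ctsk_Macro to 719 in TAM_Spp1 in RTT. The thinned share of cells with a UMI was 7.95% in Ctsk_Macro of RTT, near the NK shares of NTT and RTT_PTGS12KO, and 52.5% in TAM_Spp1. RTT itself had only 13 NK cells.

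The cell types that held most Ptgs2 UMIs differed between the tumours. TAM_Spp1 held 40.9% of them in RTT and 32.7% in RTT_ROSA26, with 19.8% and 12.4% of all UMIs. Monocyte_1 held 70.4% in NTT and 40.1% in RTT_PTGS12KO, with 57.2% and 24.9% of all UMIs. Neutrophils held 3830 of 25492 (14.6% to 15.5%) in RTT_ROSA26 with 2.07% of all its UMIs. For Ptgs1, TAM_C1q and TAM_cycling held most UMIs in the resistant samples, with 56.9% and 21.1% in RTT, 38.9% and 48.9% in RTT_ROSA26, and 30.1% and 42.4% in RTT_PTGS12KO. Their shares of all UMIs were 42.4% and 15.6%, 31.3% and 38.7%, and 16.1% and 27.9%. In NTT, Monocyte_1 held 57.4% of the 430 Ptgs1 UMIs, the same as its 57.2% of all UMIs within counting error.

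**Figure D2:**
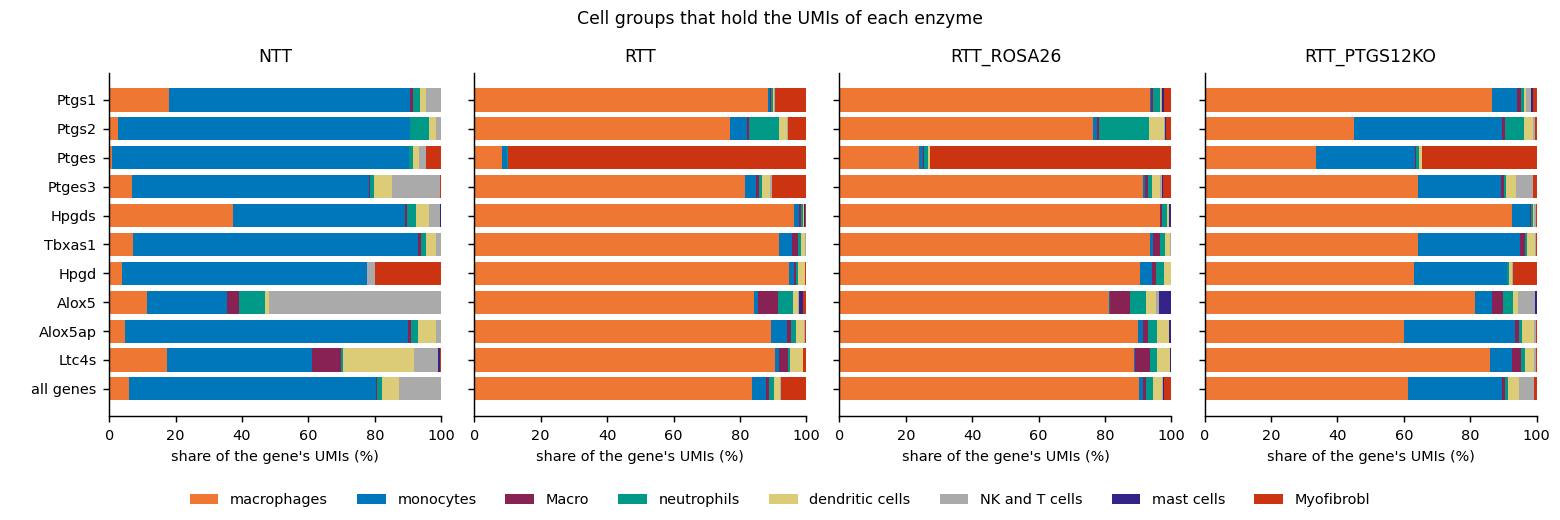
Bars give the percent of each gene's UMIs held by each group of cell types, by sample, with the share of all UMIs in the lowest bar. Among the sorted cells, Myofibrobl, low in Ptprc, held 89.9% of Ptges UMIs in RTT and 72.9% in RTT_ROSA26, while monocytes held 87.9% of Ptgs2 UMIs in NTT.

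Ptges, the microsomal synthase that completes the inducible route to prostaglandin E2, was nearly absent from the named immune types. In Myofibrobl it stood at 161 CPM (153 to 170) in RTT, at 149 (134 to 166) in RTT_ROSA26 and at 119 (101 to 140) in the 37 such cells of RTT_PTGS12KO, too few to rank. Outside Myofibrobl no ranked type passed 8.79 CPM, the level of Ctsk_Macro in RTT_PTGS12KO. TAM_C1q stood at 0.811 to 1.65 CPM in the resistant samples and NK cells at 0.420 in NTT and 0.189 in RTT_PTGS12KO. With 3.12% of cells and 7.51% of all UMIs, Myofibrobl thus held 89.9% (88.3% to 91.4%) of the Ptges UMIs of RTT, and with 0.863% of cells and 2.19% of all UMIs 72.9% (68.7% to 76.7%) in RTT_ROSA26. In RTT_PTGS12KO 0.359% of cells, with 0.857% of all UMIs, held 34.4%. The sort was for CD45+ cells and Myofibrobl cells were low in Ptprc, so their number in a sample may not reflect that in the tumour. In NTT 6 cells carried this name and held 4.62% of the Ptges UMIs, 8 of these 11 UMIs in 1 cell, whereas Monocyte_1 held 76.9%, with 57.2% of all UMIs, at a level of 4.62 CPM. Ptges overlaps the pseudogene Gm13400 on the same strand, so a part of its reads may be uncertain.

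Myofibrobl cells also carried both cyclooxygenases. Ptgs2 stood there at 261 CPM in RTT, 179 in RTT_ROSA26 and 176 in RTT_PTGS12KO, and Ptgs1 at 85.9, 58.5 and 19.9 CPM. Of 247 such cells of RTT thinned to 4000 UMIs, 41.3% (35.1% to 47.7%) had a Ptges UMI, 43.7% a Ptgs2 UMI and 21.9% a Ptgs1 UMI. Ptges was seen in 47.2% (37.5% to 57.1%) of those with Ptgs2 and 36.7% (28.7% to 45.3%) of those without, intervals that overlap, and at 2000 UMIs the order turned (24.6% and 25.6%).

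Ptges3, a co-chaperone that also has prostaglandin E synthase activity, was present in all types. Over the ranked types it spanned 79.3 CPM in Infl_Mono of RTT to 252 in T_CD8 of NTT. TAM_cycling ranked first in RTT (213 CPM), RTT_ROSA26 (227, overlapping Myofibrobl at 211) and RTT_PTGS12KO (220).

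Hpgds, the haematopoietic prostaglandin D synthase, was highest, among ranked types of RTT and RTT_ROSA26, in C1q and cycling macrophages, and low in Myofibrobl. TAM_C1q stood at 161 CPM (158 to 165) in RTT, at 171 (167 to 175) in RTT_ROSA26 and, lower, at 101 (97.0 to 105) in RTT_PTGS12KO. TAM_cycling stood at 148 CPM in RTT, 172 in RTT_ROSA26, 59.2 in RTT_PTGS12KO and 47.0 in NTT. The control line thus lay at or above RTT in these types and RTT_PTGS12KO below both. TAM_H2Ab1 ranked first in NTT with 96.2 CPM (83.3 to 111) and stood at 109 in RTT and 72.9 in RTT_PTGS12KO, whereas TAM_Spp1 stood at 15.2 to 26.6 CPM in the resistant samples. Monocyte_1 stood at 7.90 CPM in NTT and 7.81 in RTT_PTGS12KO. Over all monocytes the level was 8.28 CPM in NTT and 7.87 in RTT_PTGS12KO, against 31.8 in RTT and 18.0, from 18 UMIs, in RTT_ROSA26. The 24 mast cells of RTT_ROSA26 had 286 CPM (229 to 353), and 82.6% of 23 thinned ones had a Hpgds UMI, against 2.75% of NK cells in RTT_PTGS12KO. Mast cells are a known source of prostaglandin D2.

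Tbxas1, the thromboxane A synthase, was spread over monocytes, macrophages, neutrophils, cDC1 and cDC2, with few UMIs in lymphocytes and Myofibrobl. Pooled over the samples, cDC1 stood at 61.9 CPM from 80 UMIs, Neutro at 39.6 and cDC2 at 36.7. Macro ranked first in RTT (74.0 CPM), RTT_ROSA26 (94.8) and RTT_PTGS12KO (106), and TAM_cycling in NTT (84.9), with an interval that overlapped the second type in each sample but RTT_PTGS12KO. Monocyte_1 stood at 71.4 CPM (68.7 to 74.0) in NTT and 72.9 (70.1 to 75.7) in RTT_PTGS12KO, against 35.0 (29.2 to 41.6) in RTT. NK cells stood at 8.11 CPM in NTT and 7.20 in RTT_PTGS12KO, and Myofibrobl of RTT at 0.912. Tbxas1 overlaps Hipk2, which lies on the other strand.

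Hpgd, the dehydrogenase that inactivates prostaglandin E2 as the first step of its breakdown, was low throughout. Ctsk_Macro, which expressed the osteoclast-type genes Ctsk and Mmp9, ranked first in RTT at 16.5 CPM (13.4 to 20.1) and stood at 11.6 in RTT_ROSA26 and 6.98 in RTT_PTGS12KO. TAM_cycling stood at 7.74 CPM in RTT, 8.31 in RTT_ROSA26 and 1.93 in RTT_PTGS12KO, and Monocyte_1 between 0.479 and 2.43 CPM. Infl_Mono ranked first in the other 3 samples, and stood furthest apart in RTT_ROSA26, at 50.4 CPM (33.8 to 72.4) from 29 UMIs in 11 of 86 cells, against 3.93 in RTT, 6.51 in NTT and 11.2 in RTT_PTGS12KO. All 26 Hpgd UMIs of Myofibrobl in NTT came from 1 cell, as did all 23 in RTT_PTGS12KO.

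Alox5, the 5-lipoxygenase, was at a few CPM in most cell types. Macro, a macrophage type led by Lyve1 and Retnla, ranked first in RTT at 38.0 CPM (27.0 to 51.9), in RTT_ROSA26 at 37.0 (26.6 to 50.2) and in RTT_PTGS12KO at 18.8, with an upper bound of 28.0. Neutro followed at 19.3, 14.0 and 13.9 CPM, with intervals overlapping those of Macro in RTT and in RTT_PTGS12KO. Mast cells pooled to 79.9 CPM (56.0 to 111) from 36 UMIs. Monocyte_1 stood at 0.404 CPM in NTT and 0.931 in RTT_PTGS12KO. In NTT, NK cells ranked first at 5.73 CPM (4.11 to 7.78), overlapping Neutro at 5.16, and held 51.9% (40.4% to 63.3%) of the 79 Alox5 UMIs of that tumour, with 10.3% of all its UMIs. The NK cells of RTT_PTGS12KO had a like level of 6.63 CPM. The 6 genes of the mast cell list summed to 50.1 CPM in NK cells of NTT, with Kit at 36.1 and Tpsb2 at 0, and their part in the Alox5 level was not tested.

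Alox5ap, the 5-lipoxygenase activating protein, was abundant in myeloid cells at large. Monocyte_1, Infl_Mono, Neutro, cDC2, TAM_Spp1 and Macro each stood between 723 and 1077 CPM wherever they were ranked. TAM_C1q stood at 660 to 707 CPM and TAM_cycling at 545 to 646. Ctsk_Macro was the lowest macrophage type, at 95.4 CPM in RTT, 68.8 in RTT_ROSA26 and 97.9 in RTT_PTGS12KO, close to the 83.2 and 91.5 CPM of NK cells in NTT and RTT_PTGS12KO. After thinning, 15.1% and 17.9% of those NK cells had an Alox5ap UMI, against 89.5% to 90.5% of TAM_C1q cells.

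Ltc4s, the leukotriene C4 synthase, was led by Macro and cDC2 in RTT and RTT_ROSA26. Macro stood at 250 CPM (221 to 283) in RTT, at 321 (288 to 356) in RTT_ROSA26 and, lower, at 44.6 (33.8 to 57.8) in RTT_PTGS12KO. cDC2 stood at 152 CPM (136 to 170) in RTT, 107 (95.3 to 120) in RTT_ROSA26, 13.4 (9.87 to 17.9) in RTT_PTGS12KO and 20.5 (15.1 to 27.1) in NTT. In both types RTT and RTT_ROSA26 lay above RTT_PTGS12KO, with no overlap of counting intervals. TAM_C1q followed at 92.9, 78.6 and 30.2 CPM in RTT, RTT_ROSA26 and RTT_PTGS12KO, and TAM_cycling at 88.5, 80.2 and 15.1 CPM with 9.12 in NTT. The thinned share of cDC2 with a Ltc4s UMI was 42.3% (34.7% to 50.1%) in RTT, 28.8% in RTT_ROSA26, 3.01% (1.45% to 5.47%) in RTT_PTGS12KO and 5.56% in NTT. That of NK cells was 0.651% in NTT, and 0 of 291 cells in RTT_PTGS12KO, which allows a share of up to 1.03%.

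Consecutive steps were then read in single cells thinned to 4000 UMIs. Among macrophages, Hpgds was seen in 43.3% (40.6% to 46.0%) of Ptgs1-positive and 27.4% (26.2% to 28.6%) of Ptgs1-negative cells of RTT, in 43.2% and 30.7% in RTT_ROSA26 and in 27.6% and 18.0% in RTT_PTGS12KO. Within single types of RTT the shares were 48.9% (45.6% to 52.2%) and 41.8% (39.8% to 43.7%) in TAM_C1q, and 54.2% (47.5% to 60.8%) and 35.7% (32.0% to 39.5%) in TAM_cycling. Within TAM_cycling of RTT_ROSA26 they were 44.2% and 43.1%, with overlapping intervals. The gaps depended on the depth of thinning. At 2000 UMIs they were 26.8% and 25.6% in TAM_C1q of RTT, with overlapping intervals, and among all macrophages of RTT_PTGS12KO the order turned, to 8.56% (4.97% to 13.5%) and 10.5% (9.70% to 11.4%). At that depth the intervals stayed apart among all macrophages of RTT (24.8% and 17.3%) and of RTT_ROSA26 (31.2% and 18.9%). They were also apart in TAM_C1q of RTT_ROSA26 (34.5% and 26.3%). Among Alox5-positive macrophages of RTT, 91.3% (85.0% to 95.6%) also carried Alox5ap, against 88.4% of the rest, within that interval, and at 2000 UMIs the order turned (69.3% and 72.8%). In RTT_ROSA26 the shares were 88.5% and 85.3%, with overlapping intervals, and 71.4% and 68.3% at 2000 UMIs. In RTT_PTGS12KO they were 94.9% (89.2% to 98.1%) and 86.6% (85.6% to 87.5%), without overlap. At 2000 UMIs these were 79.7% (68.8% to 88.2%) and 69.0% (67.7% to 70.2%), which overlap. Cells with an Alox5 UMI were few, 127 of 6638 thinned macrophages in RTT.

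The study asked how resistance and the cyclooxygenases of the cancer cells bear on the host myeloid compartment, and the enzymes were compared within cell classes to set aside the numbers of cells. Macrophages were TAM_C1q, TAM_Spp1, TAM_cycling, TAM_H2Ab1 and Ctsk_Macro, and monocytes were Monocyte_1, Infl_Mono and Monocyte_3, with Macro kept apart. A gene was counted as higher or lower when it reached 10 CPM in the mean of both sums and differed at least 2-fold. The contrast of RTT_ROSA26 with RTT served as a yardstick for tumours of resistant lines without a cyclooxygenase guide. It shares RTT with the contrast of NTT and RTT_ROSA26 with that of RTT_PTGS12KO.

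Ptgs1, Hpgds and Ltc4s were lower in macrophages of RTT_PTGS12KO than of RTT_ROSA26, and none of the enzymes that reached 10 CPM was 2-fold higher. Of the 10 enzymes, 7 reached 10 CPM, 3 of them were lower and 0 higher, where 0.974% of 7086 genes were lower and 2.37% higher. The list was chosen with earlier results of these data known, so this count is a description. Ptgs1 stood at 21.1 CPM against 57.5, a log2 ratio of -1.45 (-1.52 to -1.37). Hpgds stood at 61.5 CPM against 139, a log2 ratio of -1.18 (-1.22 to -1.13), and Ltc4s at 19.4 against 68.0, a log2 ratio of -1.81 (-1.89 to -1.73). Their 3 loads gave 19.8 to 22.5 CPM against 52.9 to 62.0 for Ptgs1, 59.6 to 64.0 against 136 to 141 for Hpgds and 18.8 to 20.7 against 67.0 to 70.4 for Ltc4s, with no overlap. The loads are parts of the same sample and not replicates of a condition, so these ranges cover technical spread only. Without TAM_cycling the log2 ratio of Hpgds was -0.85, inside 2-fold. Hpgd was also lower (2.29 against 8.08 CPM, log2 ratio -1.82) but lay under 10 CPM. Ptgs2 (256 against 196 CPM, log2 ratio 0.39) and Tbxas1 (66.9 against 51.1 CPM, log2 ratio 0.39) stayed within 2-fold, as did Alox5ap (log2 ratio 0.01) and Ptges3 (-0.02). The median log2 ratio was -0.02 over the 7 enzymes and -0.09 over all genes tested.

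In the yardstick contrast 0 of the 7 enzymes that reached 10 CPM were 2-fold higher or lower in macrophages, where 0.581% of 7058 genes were higher and 0.723% lower. The log2 ratios were -0.32 for Ptgs1, 0.23 for Hpgds, -0.27 for Ltc4s and -0.71 for Ptgs2. The ratios of the first 3 in RTT_PTGS12KO thus lay further from 0 than those between RTT_ROSA26 and RTT, but with 1 sample each this has no test.

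**Figure D3:**
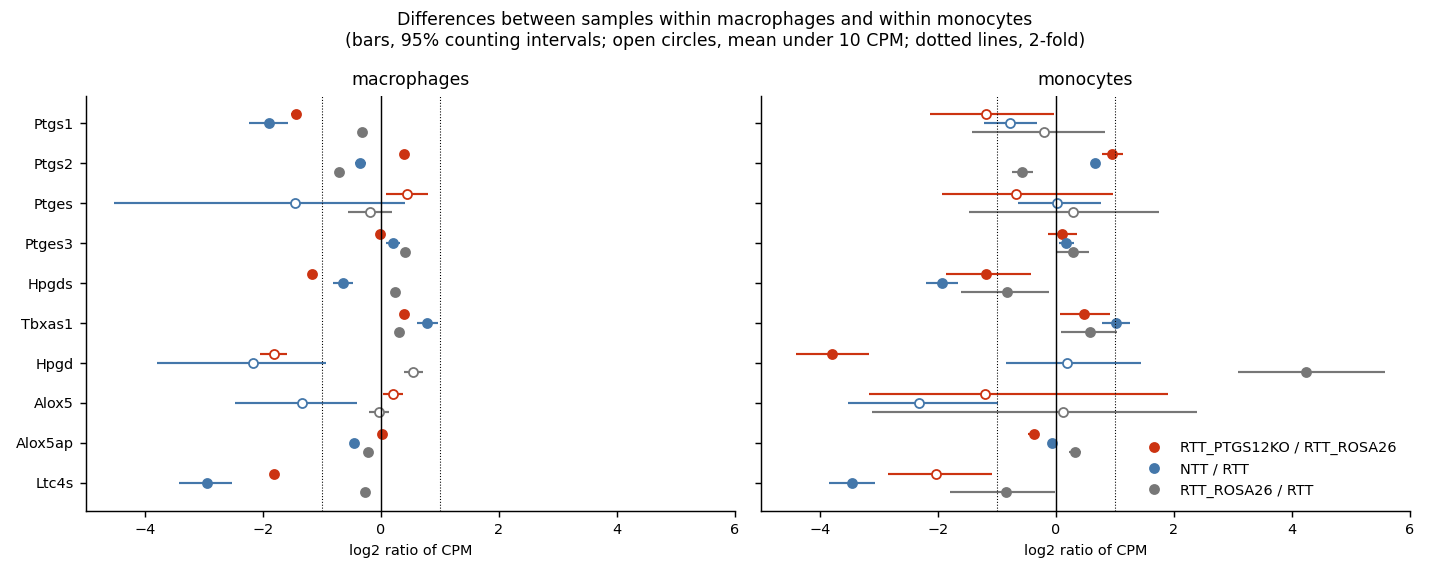
Points give the log2 ratio of CPM for each enzyme within macrophages (left) and monocytes (right) in 3 contrasts, bars the 95% counting interval, and open circles a mean under 10 CPM. Ptgs1, Hpgds and Ltc4s lay below -1 in macrophages of RTT_PTGS12KO against RTT_ROSA26, while all filled grey points of macrophages lay inside the dotted 2-fold lines.

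Within the single cell types given here the log2 ratios were mostly below 0 as well, with sizes that differed. Those of TAM_Spp1 and Ctsk_Macro lay inside 2-fold for all of Ptgs1, Hpgds and Ltc4s, and that of TAM_C1q did for Hpgds. For Ptgs1 the log2 ratio of RTT_PTGS12KO to RTT_ROSA26 was -1.31 in TAM_C1q, -1.63 in TAM_cycling, -0.62 in TAM_Spp1, -1.21 in Macro and -1.68 in Neutro, whereas Ctsk_Macro, with few Ptgs1 UMIs, had 0.02 (-0.93 to 0.91). For Hpgds it was -0.76 in TAM_C1q, -1.54 in TAM_cycling, -0.80 in TAM_Spp1, -0.68 in Ctsk_Macro and -2.53 in Macro. For Ltc4s it was -1.38 in TAM_C1q, -2.41 in TAM_cycling, -0.62 in TAM_Spp1, -2.84 in Macro and -3.00 in cDC2, and -0.34 (-0.74 to 0.05) in Ctsk_Macro. Macrophage markers moved with these values. The 8 genes of that list, all detected, summed in RTT_ROSA26 and RTT_PTGS12KO to 39139 and 24568 CPM in TAM_C1q, to 28338 and 14730.3 in TAM_cycling, to 38421 and 9578 in Macro and to 21233 and 7624 in Neutro, with Apoe the highest of the list in these 4 types. In cDC2 they summed to 2161 and 1846 CPM. Monocyte markers moved the other way in TAM_C1q (183 and 340 CPM for 6 genes). The part of either in the result was not tested.

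**Figure D4:**
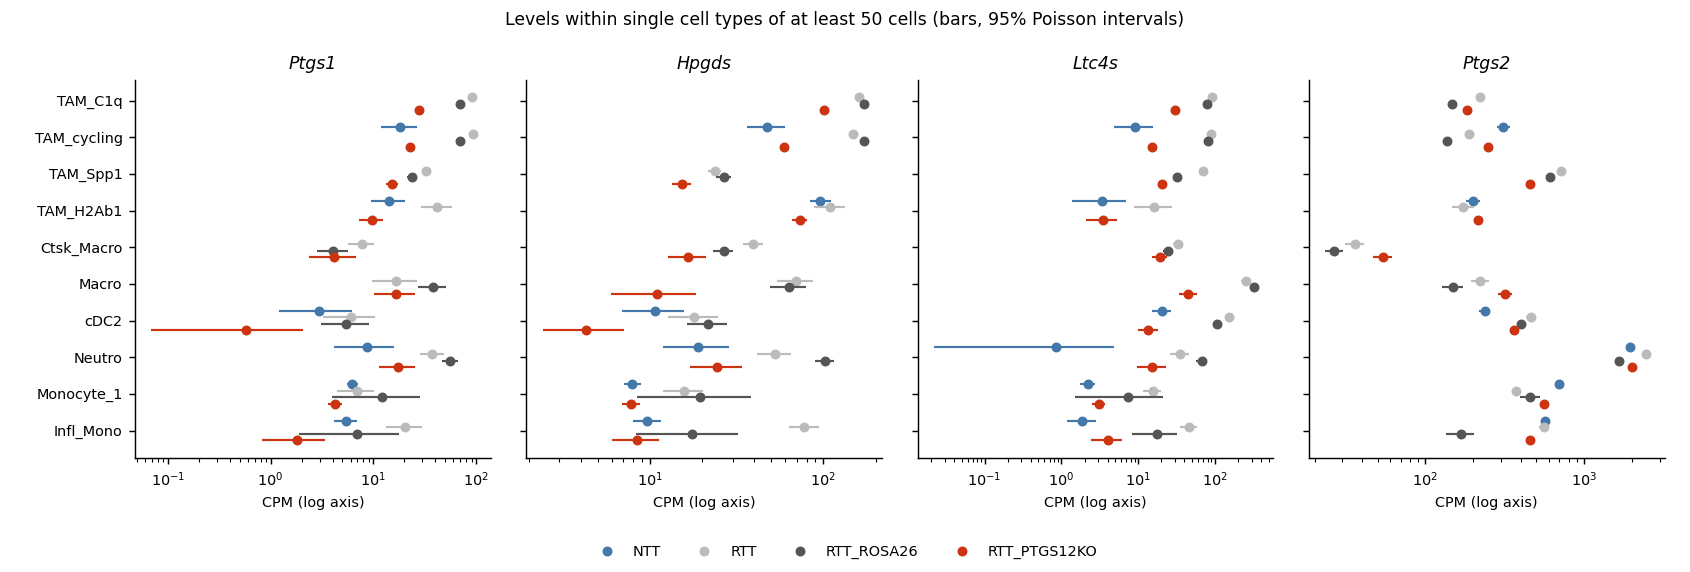
Points give CPM on a log axis of Ptgs1, Hpgds, Ltc4s and Ptgs2 in single cell types of at least 50 cells, coloured by sample, with 95% Poisson intervals as bars. RTT_PTGS12KO lay below RTT and RTT_ROSA26 for Ptgs1, Hpgds and Ltc4s in TAM_C1q and TAM_cycling, whereas its Ptgs2 lay above RTT_ROSA26 in both and below it in TAM_Spp1.

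Ptgs2 went different ways in different macrophage types. In RTT_PTGS12KO against RTT_ROSA26 it stood at 454 against 607 CPM in TAM_Spp1 (log2 ratio -0.42, -0.46 to -0.37), at 184 against 147 in TAM_C1q (0.32), at 247 against 137 in TAM_cycling (0.85) and at 53.8 against 26.7 in Ctsk_Macro (1.01, 0.73 to 1.29). In Macro it stood at 319 against 149 CPM (1.10). RTT lay between or above these values, at 719 CPM in TAM_Spp1, 221 in TAM_C1q, 189 in TAM_cycling, 35.8 in Ctsk_Macro and 221 in Macro. Ctsk_Macro, TAM_cycling and Macro of RTT_PTGS12KO were above both other resistant samples, TAM_C1q was between them and TAM_Spp1 was below both. The values of Ctsk_Macro were near the background, since NK cells of RTT_PTGS12KO stood at 49.6 CPM (43.8 to 56.0) and the 3 samples of Ctsk_Macro at 26.7 to 53.8.

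In monocytes, which numbered 144 in RTT_ROSA26 and 4015 in RTT_PTGS12KO, counts of the control were small. Of the 10 enzymes, 6 reached 10 CPM and 2 of them (Hpgds and Hpgd) were lower in RTT_PTGS12KO and 0 higher, where 2.15% of 6405 genes were lower and 1.83% higher. Both passed the minimum only through the control, where they were high, so nothing is read from this count. Hpgds rested on 18 UMIs in RTT_ROSA26 (7.87 against 18.0 CPM, log2 ratio -1.19, -1.87 to -0.42). Hpgd stood at 2.21 against 30.9 CPM (log2 ratio -3.81), and 29 of its 31 UMIs in the control lay in Infl_Mono. Ptgs2 stood at 549 against 283 CPM, a log2 ratio of 0.95 (0.78 to 1.13), just inside 2-fold, with 1.46 in Infl_Mono and 0.30 in Monocyte_1. Against RTT, RTT_ROSA26 had 1 of 7 enzymes higher (Hpgd, log2 ratio 4.25) and 0 lower in monocytes, where 1.86% of 6440 genes were higher and 1.85% lower. Hpgd again passed only through RTT_ROSA26 (30.9 against 1.63 CPM), so nothing is read from this count either. Ptgs2 had a log2 ratio of -0.57, which turned to 0.25 without Infl_Mono, as did that of Hpgds (from -0.82 to 0.25).

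Between NTT and RTT, Ptgs1 and Ltc4s were lower in NTT macrophages. Of 7 enzymes at 10 CPM, 2 were lower and 0 higher, where 3.54% of 6997 genes were lower and 5.35% higher. Ptgs1 stood at 19.2 against 71.9 CPM (log2 ratio -1.91, with 11.1 to 28.4 CPM over the loads of NTT) and Ltc4s at 10.6 against 82.0 (-2.96). Hpgds (-0.64), Alox5ap (-0.45), Ptgs2 (-0.35) and Tbxas1 (0.79) stayed within 2-fold. NTT held 308 such cells, 192 of them TAM_H2Ab1 and 79 TAM_cycling, whereas TAM_C1q and TAM_Spp1 held most of the 6734 of RTT. Within TAM_cycling the log2 ratios were -2.34 for Ptgs1, -1.65 for Hpgds and -3.28 for Ltc4s, and within TAM_H2Ab1 they were -1.56, -0.18 (-0.54 to 0.19) and -2.25. Ptgs2, lower over all NTT macrophages, had 0.72 (0.57 to 0.86) within TAM_cycling and 0.21 (-0.07 to 0.49) within TAM_H2Ab1. TAM_cycling cells of NTT had more of the monocyte list (2563 against 220.5 CPM for 6 genes, none at 0) and less of the macrophage list (12049 against 30848 CPM for 8 genes), and their part was not tested.

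In monocytes of NTT, 2 enzymes (Hpgds and Ltc4s) were lower and 1 (Tbxas1) higher among 6 at 10 CPM, where 1.48% of 6499 genes were lower and 1.85% higher. Both lower enzymes passed the minimum only through RTT, where they were high, and without Infl_Mono 0 were counted as lower, so nothing is read from that count. Ltc4s stood at 2.11 against 23.2 CPM (log2 ratio -3.46) and Hpgds at 8.28 against 31.8 (-1.94). Tbxas1 stood at 67.9 against 33.6 CPM, a log2 ratio of 1.01 (0.79 to 1.25), which fell inside 2-fold with CPM + 1 (0.99), with CPM + 10 (0.84), without load 1 (0.93) and without load 2 (0.86). Ptgs2 stood at 664 against 420.5 CPM (0.66, 0.59 to 0.72). Infl_Mono of RTT had 26429.7 CPM of the 8 macrophage genes, none at 0, against 4900.3 in NTT, and its part was not tested.

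The sums over all cells mix levels and make-up, and a weighting by cell type set the 2 apart for RTT_PTGS12KO against RTT_ROSA26, over 11 types of at least 20 cells that held 94.3% and 99.3% of their UMIs. As measured, the log2 ratio was -1.86 for Ptgs1, -1.70 for Hpgds and -2.27 for Ltc4s. With the cell type shares of RTT_ROSA26 held, the levels alone gave -1.41, -1.14 and -1.75, and with its levels held, the shares alone gave -0.41, -0.48 and -0.43. For Ptgs2 the measured 0.63 compared with 0.26 from levels and 0.38 from shares. For Ptges the measured -0.54 compared with 0.02 from levels and -0.61 from shares, with Myofibrobl at 0.863% of cells in RTT_ROSA26 and 0.359% in RTT_PTGS12KO. Between RTT_ROSA26 and RTT, Ptges was at -1.59 as measured, -0.11 by levels and -1.49 by shares. These shares are of CD45+ sorted cells and Myofibrobl was low in Ptprc, so they may not reflect shares in the tumour. For NTT against RTT the shared types covered only 85.0% and 44.4% of UMIs, and no weighting is given.

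**Figure D5:**
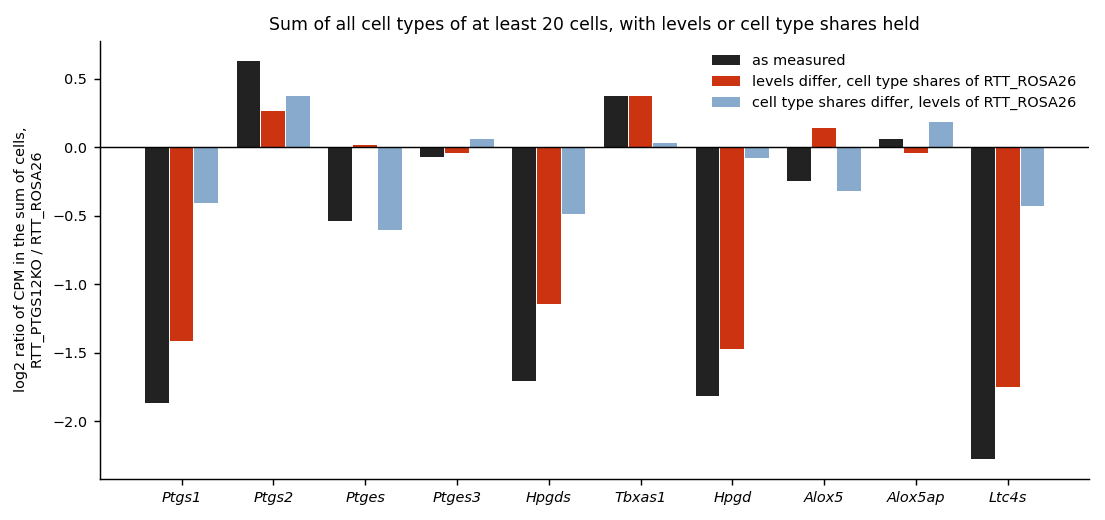
Bars give the log2 ratio of RTT_PTGS12KO to RTT_ROSA26 in the sum of cell types of at least 20 cells, as measured, with levels alone and with cell type shares alone. For Ptgs1, Hpgds and Ltc4s the bars for levels reached -1.14 to -1.75 and those for shares -0.41 to -0.48, and for Ptges the bars were at -0.54 as measured, 0.02 for levels and -0.61 for shares.

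A list of 27 other genes of the pathway gave the setting. In macrophages of RTT_PTGS12KO against RTT_ROSA26, 14 reached 10 CPM and 0 were 2-fold higher or lower, where 2.37% and 0.974% of all genes were. In monocytes 13 did, again with 0 in either direction, where 1.83% and 2.15% were. Cyp4f18, which inactivates leukotriene B4, lay just inside 2-fold in these macrophages (120 against 61.2 CPM, log2 ratio 0.97) and just outside it over all cells (1.03). In macrophages of NTT against RTT, 1 of 13 was higher (Cyp4f18, 250 against 82.4 CPM) and 1 lower (Mgst3, a microsomal glutathione transferase, 26.1 against 54.3), where 5.35% of all genes were higher and 3.54% lower. In monocytes of RTT_ROSA26 against RTT, Dpep2, a dipeptidase that converts leukotriene D4, was lower (27.9 against 64.0 CPM, from 28 UMIs in RTT_ROSA26), 1 of 14, where 1.85% of all genes were lower. The phospholipase Pla2g4a, which releases arachidonic acid, stood in macrophages at 66.8 CPM in RTT_PTGS12KO, 57.7 in RTT_ROSA26, 50.7 in RTT and 92.5 in NTT, and Prxl2b, a prostamide synthase, at 43.1, 77.8, 80.0 and 57.8 in the same order. Lta4h, which makes leukotriene B4, stood at 23.6 to 31.3 CPM in macrophages of the 4 samples.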

How the data were processed

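CD45+ cells of 4 tumour samples were profiled by 10x 3' sequencing with CellPlex sample tags. The deposited values are UMI counts per gene and cell, which the authors made with Cell Ranger against mm10 and filtered in Seurat 4.3.0, per the submitters' processing notes and the study's methods (cells with more than 1000 genes, less than 15% of UMIs from mitochondrial genes and less than 40% from ribosomal ones). The authors named cell types after Harmony integration with other experiments of the study. Doublets between samples had been removed by tag, and none were called here.

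From the deposited counts, UMIs were summed per sample and cell type or class and divided by the summed total (CPM). Intervals are 95% exact Poisson (levels), exact Clopper-Pearson (shares) and exact conditional binomial (ratios, with no pseudocount). They cover counting error only, and PCR duplicates are removed only as far as UMIs allow. A count of 0 allows up to 3 counts. Each group had 1 sample, so no test was run. Calls needed a mean of 10 CPM and a 2-fold difference. Ranked types held at least 50 cells. Shares of cells with a UMI were read after thinning each cell to 4000 UMIs, leaving out shallower cells. Scripts were tested on simulated data. The 10 enzymes and all marker and pathway lists were chosen with earlier results of these data known. The genes named were set by rule as the 10 enzymes, pathway genes with at least 10 CPM in a class sum, and for each enzyme the 3 genes with the highest Pearson correlation over groups of at least 50 cells. Of the pathway genes, those past 2-fold and some others were picked for the text after their values were seen, as was Alox15, which lies outside the rule. Prxl2b is the table's name for Fam213b. Alternatives were other pseudocounts, TMM factors (edgeR 4.0.16), no CPM minimum, stricter cell filters, removal of high-UMI cells, each load or 1 cell type left out, the mean of each cell's own CPM, and thinning to 2000 UMIs or none. Python 3.11.15, numpy 2.4.6, scipy 1.17.1 and pandas 2.3.3 were used.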

Additional observations from a re-analysis of the deposited data

Results flagged for a closer look

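Ptgs2 differed in direction between 2 cell classes for NTT against RTT. Its log2 ratio was 0.66 in monocytes (664 against 420.5 CPM) and -0.35 in macrophages (252 against 321 CPM). Within the macrophage types ranked in both samples it was 0.72 in TAM_cycling and 0.21 (-0.07 to 0.49) in TAM_H2Ab1, so the lower value was not seen within matched types. The difference between the classes was not tested, since each group held 1 sample.

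Ptgs2 also differed in direction between macrophage types for RTT_PTGS12KO against RTT_ROSA26, with a log2 ratio of 1.01 in Ctsk_Macro (53.8 against 26.7 CPM) and -0.42 in TAM_Spp1 (454 against 607 CPM). The Ctsk_Macro levels were near that of NK cells in RTT_PTGS12KO (49.6 CPM, 43.8 to 56.0), which serve as background. This difference was not tested either.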

How the results depend on the processing

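No paired analysis was possible because with 1 sample per group no result comes from a test. Over 400 recomputed log2 ratios, 393 kept their sign and 383 their side of 2-fold. Ptgs1, Hpgds and Ltc4s stayed the 3 enzymes counted as lower in macrophages of RTT_PTGS12KO, except that Hpgds reached only -0.85 without TAM_cycling and that 4 enzymes were lower with no CPM minimum. In macrophages of NTT against RTT, 5 enzymes rather than 2 were lower with no CPM minimum. The share of all genes was not computed without a minimum, so nothing is read from such counts. In monocytes, RTT_ROSA26 had few UMIs (18 for Hpgds, 31 for Hpgd). For RTT_PTGS12KO against RTT_ROSA26, the 2 lower became 1 with CPM + 10, without cells of high UMIs, without load 2 or 3, by the mean of each cell's CPM and without Infl_Mono, and 5 with no minimum, and 0 higher became 1 (Ptgs2) with TMM factors and without load 3. For NTT against RTT, 1 higher (Tbxas1) became 0 with CPM + 1, with CPM + 10 and without load 1 or 2, and 2 lower became 1 without cells of high UMIs and 0 without Infl_Mono. With no minimum, Alox5 (log2 ratio -2.32) was counted as lower there as well. For RTT_ROSA26 against RTT, 1 higher (Hpgd) became 0 without load 2 and without Infl_Mono, and 0 lower became 1 without cells of high UMIs, without load 1 or 3, by the mean of each cell's CPM and without Infl_Mono. Without Infl_Mono, Ptgs2 of that contrast turned from -0.57 to 0.25. The cause was not tested. Thinning to other depths moved 87 of 102 shares of cells with a UMI and 10 of 12 shares for consecutive steps. Of 200 recomputed shares of an enzyme's UMIs in its leading cell type, 42 moved. With types of 20 cells or more ranked, 10 of 40 highest levels moved.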

Other observations

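Other genes of the pathway were led by different cell types when the 4 samples were pooled. Alox15, a 12/15-lipoxygenase, stood at 56.1 CPM in Macro and at most 0.269 in any other type, and it was among the genes that define that cluster. Over all cells RTT_PTGS12KO had 115 Alox15 UMIs, RTT_ROSA26 112, RTT 11 and NTT 0. Of the 11 in RTT, 10 lay in the macrophage class, which leaves out Macro, so the pooled level of Macro came almost wholly from RTT_ROSA26 and RTT_PTGS12KO. Mgst3 stood highest in Ctsk_Macro (158 CPM, against 124 in Myofibrobl) and Dpep2 in TAM_Spp1 (60.6 CPM, against 45.2 in cDC2). These pooled levels weight the samples by their cells of each type.

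The genes whose level was most alike each enzyme were ranked over 42 groups of a cell type and sample by Pearson's r of log2(CPM + 1), among 10459 genes. The groups share libraries and free RNA, so r is a description. For Ptgs1 these were Prune2 (0.863), Nfic (0.842) and Wls (0.833), and for Ptgs2 Slc7a11 (0.901), Plaur (0.895) and Trib1 (0.891). For Ptges they were Efna5 (0.891), Fermt2 (0.891) and Chn1 (0.890), and for Hpgds Ntpcr (0.934), Abhd12 (0.921) and Stab1 (0.908). Alox5ap had Picalm (0.962), Gpr35 (0.931) and, ranked between them, Tlr2, Tbxas1 had Creg1 (0.939), Fes (0.921) and Sirpa (0.915), and Ltc4s had St6gal1 (0.823), Mtss1 (0.822) and Gm41307 (0.814). Ptges3 had Snrpd1 (0.882), Ran (0.863) and Ddx39 (0.859). The values were lowest for Hpgd (Rgl2 0.754, Crybg3 0.720, Slc16a7 0.716) and Alox5 (Gm41307 0.760, Ccpg1 0.748, Rnf150 0.732).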
